A study of Mus musculus with 2 samples.

Results

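The genes described here are the MHC class II genes Cd74, H2-Aa, H2-Ab1, H2-Eb1 and Ciita and the border macrophage genes Mrc1, Cd163, F13a1 and Lyve1, measured in single cells of the aged mouse hippocampus. They were chosen by symbol, and all 9 were among the 19059 genes of the files of both libraries. Their UMIs and the number of cells positive for them were taken in microglia, in meningeal cells and in cells with 2 or more UMIs of Mrc1, Cd163 and F13a1 together, called gated cells below. A UMI (unique molecular identifier) is a tag that marks a single molecule, and levels are given in CPM, the usual scaling of a gene's UMIs to the total UMIs of the cells concerned. The 5599 Cd74 UMIs among 2908660 UMIs of control microglia-like cells, for example, are 1925 CPM. One library came from untreated C57BL/6 mice on standard chow (control). The other came from C57BL/6 mice fed tomatidine, a natural steroidal alkaloid, at 0.05% of the diet (tomatidine). In both groups 4 mice were pooled, aged 21 months when the diets began and kept on them for 3 months, and the study used both sexes. The comparison asks how these immune genes differ between the hippocampus of treated and of untreated aged mice. Because each group is 1 library, the groups could not be tested against each other and p-values are left out, and a difference in 1 of the 4 mice cannot be told apart from one shared by all of them. Intervals in parentheses are 95% intervals for counting error only, and they treat UMIs as independent, although many of them sit in few cells.

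MHC class II molecules are pairs of an alpha and a beta chain that carry peptides from engulfed proteins to the cell surface, where CD4 T cells read them. H2-Aa and H2-Ab1 encode the alpha and beta chains of the I-A molecule, and H2-Eb1 encodes the beta chain of I-E, which C57BL/6 mice do not display because their gene for its alpha chain is defective. Cd74 encodes the invariant chain, which blocks the peptide groove until the molecule reaches the endosome, and Ciita encodes the transactivator without which these promoters stay nearly silent. Resting microglia carry little MHC class II. Macrophages at the borders of the brain, in the meninges, the perivascular spaces and the choroid plexus, are known by the mannose receptor Mrc1 (CD206), the haemoglobin scavenger receptor Cd163, the factor XIII A chain F13a1 and, in a subset low in MHC class II, the hyaluronan receptor Lyve1.

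The 3 chain genes lie close together on chromosome 17 of GRCm38 (mm10), H2-Ab1 at chr17:34257689-34269419, H2-Aa at chr17:34282744-34287823 and H2-Eb1 at chr17:34305867-34316674. Ciita lies on chromosome 16, Cd74 on 18, Mrc1 on 2, Cd163 on 6, F13a1 on 13 and Lyve1 on 7. Promoter sequence, 250 bases before to 50 bases after a start site, was found in RefSeq (GRCm38.p6) for 5 of the 9 genes, and it is shown for H2-Aa and H2-Eb1, the chain genes among them. Ciita acts through proteins bound to the X and Y boxes of such promoters. The capitals mark GCAAC, searched for as the core of the X box, and GATTGG, the inverted CCAAT of the Y box.
H2-Aa, chr17:34287774-34288073, minus strand: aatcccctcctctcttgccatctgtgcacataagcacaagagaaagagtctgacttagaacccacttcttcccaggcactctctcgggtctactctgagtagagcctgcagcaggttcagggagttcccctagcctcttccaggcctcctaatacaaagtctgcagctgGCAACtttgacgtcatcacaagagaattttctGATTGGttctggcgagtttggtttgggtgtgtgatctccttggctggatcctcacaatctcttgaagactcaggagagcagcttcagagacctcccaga
H2-Eb1, chr17:34305617-34305916, plus strand: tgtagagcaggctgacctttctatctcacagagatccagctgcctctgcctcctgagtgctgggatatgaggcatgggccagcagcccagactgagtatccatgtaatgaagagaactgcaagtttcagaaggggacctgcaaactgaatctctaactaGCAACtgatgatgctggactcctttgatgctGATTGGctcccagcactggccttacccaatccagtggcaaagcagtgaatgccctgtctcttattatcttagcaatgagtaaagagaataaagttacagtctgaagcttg
GCAAC began 81 bases before the H2-Aa start and 91 bases before that of H2-Eb1, with GATTGG beginning 32 and 31 bases further on. Counting both strands, GCAAC was in 35.2% and GATTGG in 16.1% of 32817 promoter windows, and the 2 motifs in this order, 20 to 45 bases apart, were in 0.436%; this spacing window was set after the sequences were seen. The pair also stood in the windows of H2-Oa and H2-Ob, which encode a modulator of peptide loading, but not in those of the pathway genes H2-DMa and H2-DMb1 or of Mrc1, Cd163 and F13a1.

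The files held 15912 control and 15185 tomatidine cells, of which 15115 and 14502 were kept, with a median of 7077 and 7408 UMIs. Clusters were named from markers. The 9 genes and the other genes of the gene lists below took no part in the clustering. Cell class markers and further genes named below, such as P2ry12, Csf1r, Ccl5 and Plbd1, were not left out of it. Microglia-like cells were 1 cluster of 649 control and 573 tomatidine cells (median 3796 and 3509 UMIs), in which all 10 microglia markers with probes were detected in both libraries. Meningeal-like cells were 1 cluster of 286 and 522 cells (3536.5 and 3146.5 UMIs) led by Fmod, Col1a1 and Slc6a13. No cluster met the criteria for macrophages, so the gated cells stand in their place. They were a mixed set, and their CPM include RNA of other cell classes. Astrocyte markers stood at 5923 CPM in control and 6889 CPM in tomatidine gated cells, against 897 and 2854 CPM in those that were microglia-like. Cluster 19, a shallow cluster led by Tyrobp, C1qb and C1qa, and cluster 15, led by Cldn5 and Adgrl4 with raised mural markers, stayed unnamed. The libraries share 262 cell barcodes among kept cells, but 0 among gated cells. Choroid plexus markers, which are not made by microglia, were at 1298 CPM in the control and 186 CPM in the tomatidine microglia-like cells, and 346 control against 34 tomatidine cells were choroid plexus-like. The part of this difference in the results was not tested.

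Over all kept cells, the UMIs of the class II genes were lower in the tomatidine library, and those of the border macrophage genes were close to each other. Cd74 had 10490 UMIs in 878 control cells and 3197 UMIs in 498 tomatidine cells, a log2 ratio of tomatidine over control of −1.67 (−1.73 to −1.61). H2-Aa had 4054 UMIs in 436 cells against 1183 in 232 (−1.73), H2-Ab1 3356 in 352 against 1234 in 236 (−1.40) and H2-Eb1 4345 in 467 against 1441 in 349 (−1.55). Ciita was sparse, with 176 UMIs in 69 cells and 99 UMIs in 48 cells (−0.79, −1.16 to −0.42). Thus each of the 5 class II genes was lower with tomatidine, and the interval of each lay below 0. Mrc1 had 1247 UMIs in 228 control cells and 1343 in 247 tomatidine cells (0.15, 0.04 to 0.26). Cd163 had 433 in 88 against 438 in 105 (0.06), F13a1 304 in 141 against 361 in 164 (0.29) and Lyve1 191 in 73 against 174 in 83 (−0.09). The intervals of Cd163 (−0.13 to 0.26) and Lyve1 (−0.40 to 0.21) included 0.

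Both groups of genes were concentrated in few classes of cells. Among 28 classes and unnamed clusters with at least 30 cells in each library, lymphocyte-like cells had the highest level of all 5 class II genes, and microglia-like cells the next highest. Cd74, for example, stood at 10809 CPM in control and 7281 CPM in tomatidine lymphocyte-like cells, and at 1925 and 508 CPM in microglia-like cells. Microglia-like cells had the highest level of Mrc1, Cd163, F13a1 and Lyve1 in both libraries, and cluster 19 the next highest of Mrc1, Cd163 and Lyve1. For F13a1 the next were meningeal-like cells in the control (21.8 CPM) and lymphocyte-like cells in the tomatidine library (49.3 CPM). Mrc1 was at 242 CPM in control and 387 CPM in tomatidine microglia-like cells and at 171 and 183 CPM in cluster 19. The microglia-like cells, 4.29% of control and 3.95% of tomatidine cells, held 51.5% and 40.7% of the UMIs of the 3 chains H2-Aa, H2-Ab1 and H2-Eb1. They held 54.6% and 68.1% of the UMIs of the gate genes Mrc1, Cd163 and F13a1. The lymphocyte-like cells, 0.390% and 0.221% of cells, held 23.6% and 22.3% of the chain UMIs and under 1 in 100 of the gate gene UMIs (0.756% and 0.934%).

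**Figure D1:**
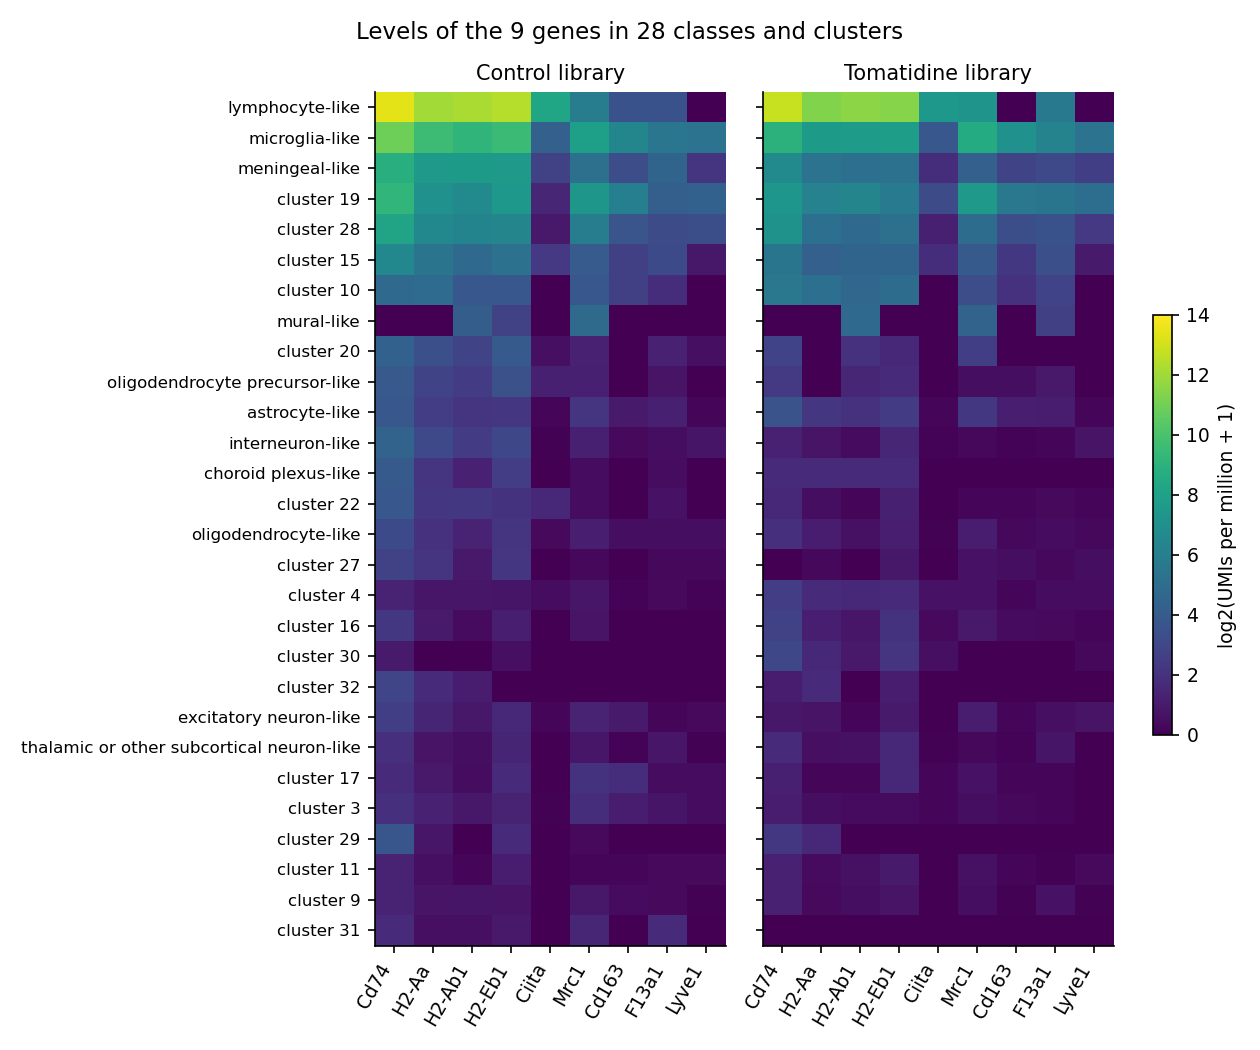
Level of each gene (columns) in 28 cell classes and unnamed clusters (rows, ordered by the 3 chains) in the control and the tomatidine library, as log2(CPM + 1) in colour. Lymphocyte-like and microglia-like cells lead the columns of the class II genes, and microglia-like cells and cluster 19 those of Mrc1, Cd163 and Lyve1; levels are to be compared down a column, since probes differ between genes.

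Oligodendrocytes, which do not normally make MHC class II, were taken as a gauge of free RNA. In oligodendrocyte-like cells (median 5104.5 and 4726 UMIs), 3.44% of control and 1.63% of tomatidine cells had a UMI of the 3 chains, with 150 and 42 UMIs in all. This log2 ratio of −1.41 (−1.94 to −0.91) had the direction of the ratio in all kept cells. Of 24 classes with at least 20 chain UMIs in both libraries together, 18 were lower with tomatidine and 14 of these had an interval below 0. The opposite direction with an interval above 0 was found in clusters 4, 16 and 30, at up to 6.47 CPM. Chain levels of a few CPM are therefore read as background, and those of the sets described next lie above them.

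In microglia-like cells, Cd74 and the 3 chains were lower in the tomatidine library, with log2 ratios of −1.94 to −1.41, and the gate genes were higher, with ratios of 0.64 to 0.78. Cd74 had 5599 UMIs in 205 of 649 control cells and 1241 in 111 of 573 tomatidine cells, with a log2 ratio of −1.92 (−2.01 to −1.83). H2-Aa had 2209 UMIs in 89 cells against 484 in 41 (−1.94, −2.08 to −1.79). H2-Ab1 had 1638 UMIs in 106 cells against 518 in 66 (−1.41, −1.55 to −1.26), and H2-Eb1 2207 in 85 against 567 in 40 (−1.71, −1.84 to −1.57). Ciita had 55 UMIs in 18 control cells and 31 in 8 tomatidine cells, and its interval included 0 (−0.57, −1.26 to 0.09). So Cd74 and each chain were lower beyond counting error, while for Ciita no difference was detectable at this depth.

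The gate genes went the other way in these cells. Mrc1 had 705 UMIs in 56 control and 945 UMIs in 62 tomatidine cells (0.68, 0.53 to 0.82). Cd163 had 250 in 30 against 327 in 39 (0.64, 0.40 to 0.88), and F13a1 129 in 29 against 186 in 44 (0.78, 0.45 to 1.12). Lyve1 did not share this direction, with 115 UMIs in 22 cells against 96 in 24 and a log2 ratio of −0.01 (−0.41 to 0.40). The share of positive cells differed less clearly for Mrc1 (2.19 points, −1.13 to 5.60) and Cd163 (2.18, −0.42 to 4.91), whose intervals included 0. For F13a1 it was 3.21 points (0.53 to 6.02). Of the Mrc1 UMIs, 692 and 936 were in the 43 control and 53 tomatidine cells that were gated. At a fold of at least 1.5, 4 of the 9 genes were lower (2.38% of 11952 genes with at least 20 UMIs) and 3 were higher (6.12% of them).

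**Figure D2:**
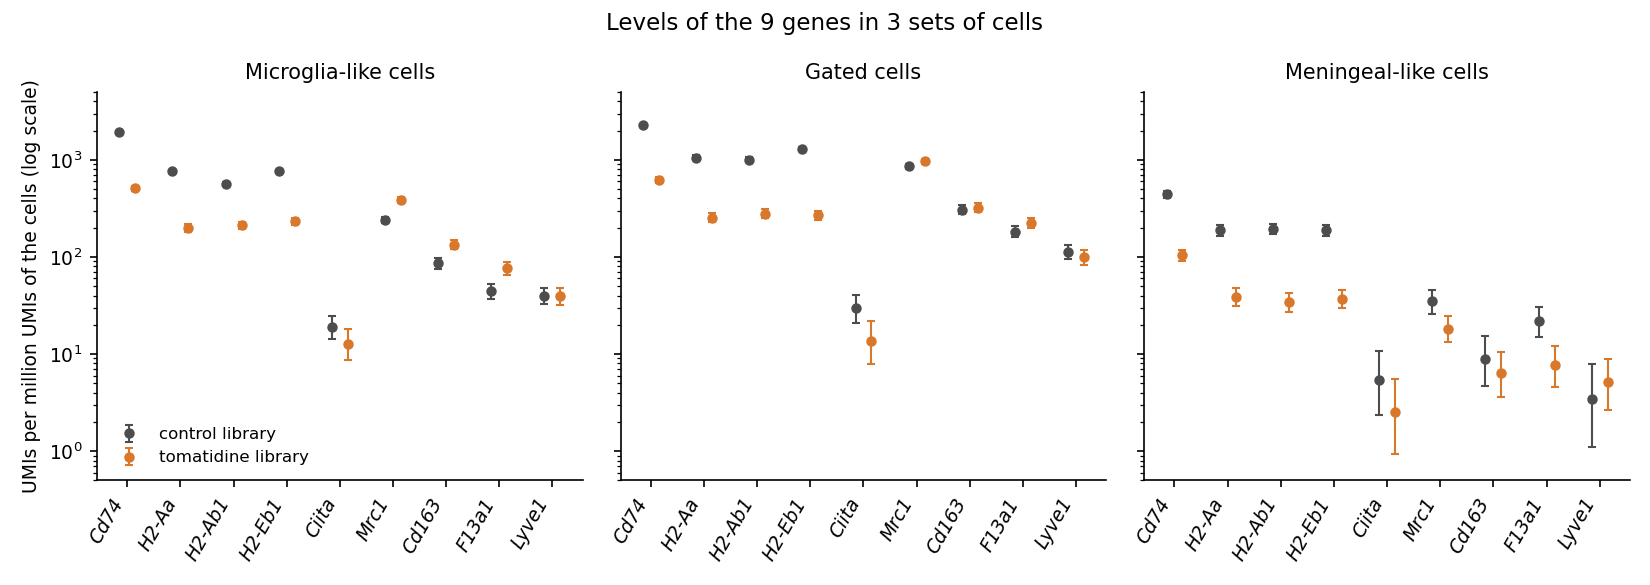
Level in CPM (log scale) of the 9 genes in microglia-like, gated and meningeal-like cells of the control and tomatidine libraries, with bars for exact 95% Poisson intervals (counting error). In each set Cd74 and the 3 chains are lower in the tomatidine library, while Mrc1 is higher in microglia-like cells and lower in meningeal-like cells.

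**Figure D3:**
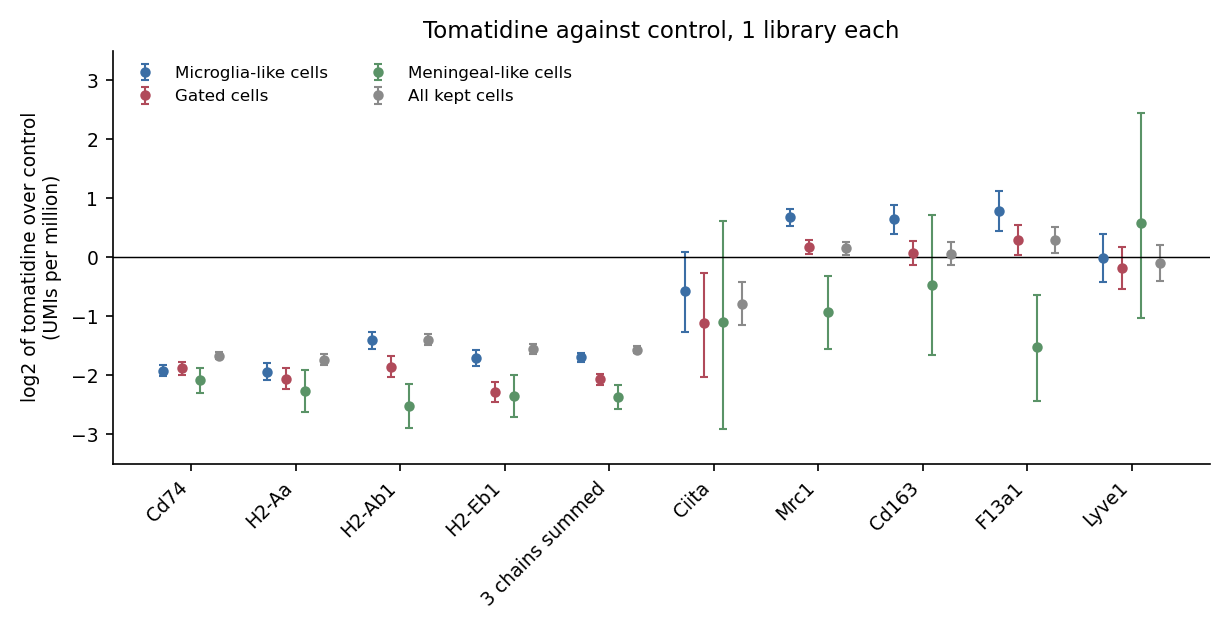
Log2 ratio of tomatidine over control for each gene and for the 3 chains summed in 4 sets of cells, with 95% counting intervals. The ratios of Cd74 and the chains lie between −2.52 and −1.40 in every set, whereas those of Mrc1 lie between −0.93 and 0.68.

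Summed over the 3 chains, microglia-like cells had 6054 control and 1569 tomatidine UMIs, 2081 and 643 CPM, with a log2 ratio of −1.70 (−1.78 to −1.61). A chain UMI was found in 145 control cells (22.3%, 19.2 to 25.7%) and 86 tomatidine cells (15.01%, 12.2 to 18.2%), a difference of −7.33 points (−11.6 to −2.95). With each cell thinned to 1500 UMIs, these shares were 16.0% and 8.86%, against 1.26% and 0.501% in oligodendrocyte-like cells. Thus fewer microglia-like cells were positive and the positive cells also held fewer UMIs on average. At 5 or more chain UMIs, called chain-high below, there were 60 control (9.24%) and 28 tomatidine cells (4.89%), and these held 97.6% and 95.4% of the chain UMIs of the class.

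The UMIs were concentrated further still. The 5 control cells with the most chain UMIs (998, 906, 668, 380 and 303) held 53.8% of the class's chain UMIs, and the 5 tomatidine cells with the most (454, 263, 246, 106 and 65) held 72.3%. Without these 5 cells of each library the log2 ratio was −2.44 (−2.59 to −2.30), with 2799 and 435 UMIs left. The mean of the single cells' CPM gave −1.34. The direction was the same without the top cells, but leaving them out removed a larger share of the tomatidine than of the control UMIs. The size depended on how cells were weighted.

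**Figure D4:**
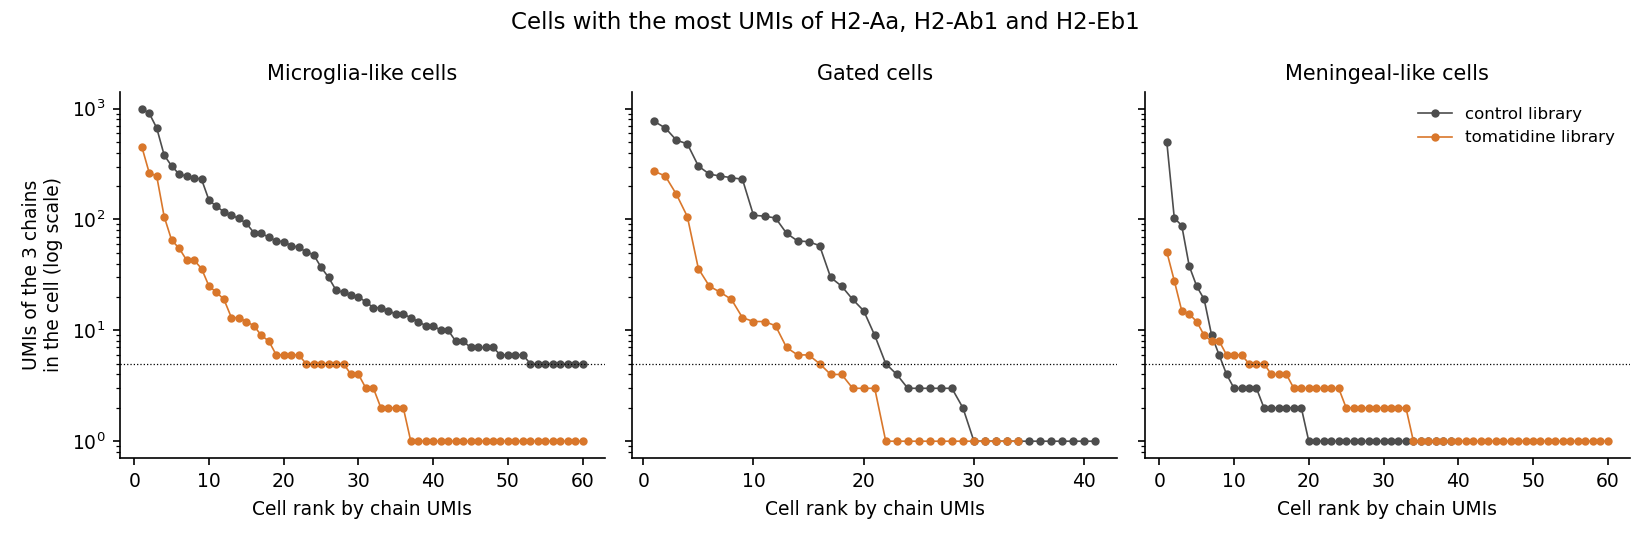
UMIs of H2-Aa, H2-Ab1 and H2-Eb1 summed in each cell (log scale) for up to 60 cells with the most in microglia-like, gated and meningeal-like cells, by rank; the dotted line is at 5 UMIs. The control curve lies above the tomatidine curve over the first 60 ranks of microglia-like cells, whereas in meningeal-like cells it lies above at the first 7 ranks and at or below it from rank 8. Ranks are not scaled to the number of cells, which for meningeal-like cells was 286 in the control and 522 in the tomatidine library.

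The gated cells numbered 115 in the control and 122 in the tomatidine library, 0.761% and 0.841% of kept cells, a difference of 0.08 points (−0.12 to 0.29). Most fell in few classes, 43 control and 53 tomatidine cells being microglia-like, 13 and 14 in cluster 19, 11 and 13 meningeal-like and 10 and 17 in cluster 15. In microglia-like cells the gated share was 6.63% of control and 9.25% of tomatidine cells (2.62 points, −0.41 to 5.76). Just inside the gate, 24 and 25 cells had exactly 2 UMIs, of which 2 and 0 were microglia-like, and just outside it 218 and 257 cells had 1 UMI. Of the gated cells outside the microglia-like cluster, 52 of 72 control and 41 of 69 tomatidine cells had a UMI of Pf4, Ms4a7, Stab1 or Folr2, further genes of border macrophages. The share in ungated cells is not given here. Pf4 and Ms4a7 together had 17 and 4 UMIs in the cells just inside the gate and 40 and 28 in those just outside. In the 81 and 80 cells with 4 or more gate gene UMIs they had 410 and 349, so the edge of the gate parted cells less clearly.

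The 10 genes with the largest fold in gated over other microglia-like cells were taken among genes with at least 20 UMIs in the gated cells, so they passed through the group where they are high and are a description. Cd209f, a C-type lectin, had 153 control and 173 tomatidine UMIs in the gated cells and 0 in the others, a log2 ratio of at least 9.72 and 9.45 against 3 UMIs in the others. Pf4, a chemokine, had 96 and 111 UMIs in the gated cells and 1 and 3 in the others. Lyve1 had 115 and 95 UMIs there against 0 and 1 in the others, so nearly all Lyve1 of the cluster was in gated cells. The folate receptor Folr2 (48 and 85 against 3 and 5), the chemokine Ccl8 (47 and 56 against 0), Fcna, Clec10a, Clec4n, Cd209b and Cbr2 completed the 10 with the largest fold. Cd74 had 1534 and 320 UMIs in the gated against 4065 and 921 in the other cells, a log2 ratio of gated over other of 2.64 and 2.07, and those of the chains were 3.18 to 3.54 in the control and 2.49 to 2.63 in the tomatidine library. Cells of 1 library are not replicates, so no test goes with this comparison. Of the 10 microglia markers, 9 were lower in the gated cells in both libraries, among them P2ry12 at 716 and 333 CPM against 3135 and 2841 CPM and Csf1r, with a small difference, at 4032 and 3836 CPM against 4098 and 3955 CPM. The other, Fcrls, was higher, at 2203 and 1964 CPM against 1705 and 1760 CPM.

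Within the gated cells the chains were lower in the tomatidine library. The gate genes were close there, but the cells were chosen by the UMIs of these genes, so their levels are a description only. The 3 chains had 4420 UMIs in 41 of 115 control cells and 997 in 34 of 122 tomatidine cells. This was 3364 and 801 CPM, against 14137 and 2736 CPM in gated microglia-like cells alone. The log2 ratio in all gated cells was −2.07 (−2.17 to −1.97). H2-Aa had 1387 and 316 UMIs (−2.06), H2-Ab1 1318 and 346 (−1.85), H2-Eb1 1715 and 335 (−2.28) and Cd74 2999 and 770 (−1.88). Ciita had 39 UMIs in 14 control and 17 in 6 tomatidine cells (−1.12, −2.03 to −0.26). Mrc1 had 1123 and 1207 UMIs (0.18), Cd163 404 and 402 (0.07), F13a1 239 and 276 (0.29) and Lyve1 149 and 124 (−0.19, −0.54 to 0.17). The 5 class II genes were at least 1.5-fold lower (6.57% of 11790 genes). Of the 9, which include the gate genes, 0 were at least 1.5-fold higher (9.13%). Mrc1, Cd163 and F13a1, the genes of the gate, had smaller ratios within the gated microglia-like cells than in all microglia-like cells (0.27, 0.23 and 0.36, the interval of Cd163 including 0). In gated cells of other classes Mrc1 was lower (431 and 271 UMIs, −0.55).

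The share of gated cells that were chain-high differed less than the UMIs did. It was 22 of 115 (19.1%) in the control and 16 of 122 (13.1%) in the tomatidine library, a difference of −6.02 points (−15.5 to 3.40) that includes 0. In gated microglia-like cells there were 12 chain-high cells in each library, but with a median of 169.5 chain UMIs in the control and 16 in the tomatidine cells. The 5 gated cells with the most chain UMIs held 61.9% in the control and 83.1% in the tomatidine library, and without them the log2 ratio was −3.27 (−3.51 to −3.04). Markers of microglia were also at different levels, the 10 genes summing to 13229 CPM in control and 8397 CPM in tomatidine gated microglia-like cells, and the part of this in the result was not tested.

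Lyve1 and the chains divided the gated microglia-like cells. Among cells without a chain UMI, 19 of 26 control (73.1%) and 22 of 38 tomatidine cells (57.9%) had a Lyve1 UMI. Among the chain-high cells, 1 of 12 control cells (8.33%) and 0 of 12 tomatidine cells had one, where a count of 0 allows up to 25%. The difference within a library was −64.7 points (−79.6 to −31.6) in the control and −57.9 points (−72.1 to −29.0) in the tomatidine library. The chain-high cells were the deeper ones, with a median of 4332 and 3633 UMIs against 3418.5 and 3013.5 in those without chains. The chain-high cells also held fewer gate gene UMIs, a median of 8 and 10.5 against 27 and 30. The grouping at 0 and at 5 chain UMIs was the same for both libraries, and the 5 control and 3 tomatidine cells with 1 to 4 chain UMIs included 2 and 1 with Lyve1.

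**Figure D5:**
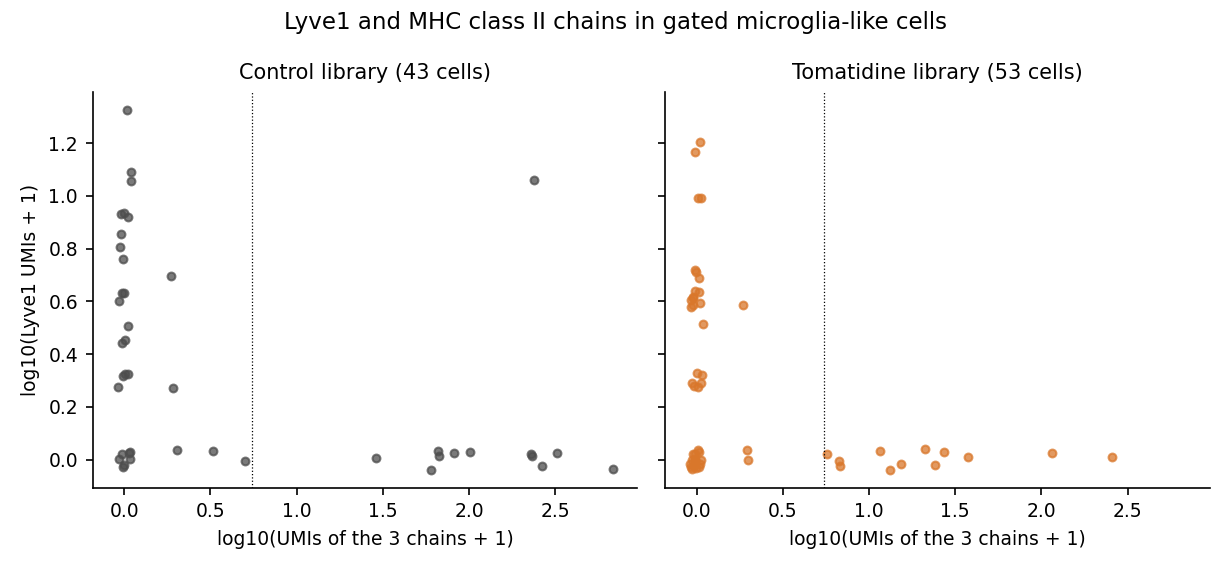
Lyve1 UMIs against UMIs of the 3 chains in each gated microglia-like cell, both as log10(UMIs + 1), for 43 control and 53 tomatidine cells, with small random shifts to part overlapping points; the dotted line divides 4 from 5 chain UMIs. To the right of the line 1 control cell and 0 tomatidine cells hold Lyve1.

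A finer clustering (resolution 1.5 instead of 0.8), looked at after the values were seen, parted 95 control and 92 tomatidine microglia-like cells from the rest, in an unnamed cluster of 154 and 124 cells led by Ccl5, Cybb and Lilrb4a, whose other 59 and 32 cells were the lymphocyte-like cells. The 95 and 92 cells included 39 of the 43 and 51 of the 53 gated microglia-like cells and 88.1% and 93.1% of the chain UMIs of the class. Their chains stood at 12599 CPM in the control and 3956 CPM in the tomatidine library (5332 and 1461 UMIs, −1.67, −1.76 to −1.59). Their Mrc1 had 674 and 890 UMIs (0.60, 0.45 to 0.74), Cd163 247 and 320 (0.57), F13a1 122 and 161 (0.60) and Lyve1 108 and 88 (−0.10, −0.52 to 0.32). The remaining microglia-like cells, 556 and 483 in that clustering, had 722 and 108 chain UMIs. Most chain UMIs and most gated cells of the class were thus in these 95 and 92 cells, which separated without use of the 9 genes.

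The ungated microglia-like cells also differed in the class II genes. They had 3705 chain UMIs in the control and 1059 in the tomatidine library (−1.52, −1.62 to −1.43), with 48 of 606 and 16 of 520 cells chain-high. Cd74 had 4065 and 921 UMIs in them (−1.86), while Mrc1 had 13 and 9 and Cd163 1 and 0. The 10 genes with the largest fold in chain-high over chain-negative microglia-like cells were Cd74, Ciita, Plbd1, Ccl5, Cxcl9, Ccl8, Dnase1l3, Klra2, Ccr2 and Mgl2. These too were taken among genes with at least 20 UMIs in the chain-high cells. They thus passed through the group where they are high and are a description. Ciita had 54 control and 31 tomatidine UMIs in the chain-high cells and 0 in the chain-negative ones, and the T cell chemokine Cxcl9 had 65 and 13 against 0. Ccr2, the receptor that marks monocytes, had 25 and 24 UMIs against 10 and 6. All 10 microglia markers were lower in chain-high than in chain-negative cells in both libraries, P2ry12 at 2024 and 959 CPM against 3282 and 2779 CPM and Siglech, in the control, at 1322 against 1337 CPM. Mrc1 had 132 and 138 UMIs in the chain-high and 528 and 762 in the chain-negative cells. Lyve1 had 11 and 0 UMIs in the chain-high against 99 and 92 in the chain-negative cells.

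Over all kept cells, 126 control (0.834%) and 71 tomatidine cells (0.490%) were chain-high, a difference of −0.34 points (−0.53 to −0.16). Cd74 was detected in 125 and 66 of them and all 3 chains in 106 and 62. Ciita was detected in 34.1% and 39.4% of them and in 0.173% and 0.139% of the other cells. They were divided, after their values were seen, by the genes they carried. A set of 20 control and 14 tomatidine cells carried 2 or more UMIs of B cell genes. Of the others, 20 and 16 were gated, 75 and 27 had 5 or more UMIs of microglia markers, and 11 and 14 had none of these. Their shares of the chain UMIs of chain-high cells were 16.3% and 17.0% for the cells with B cell genes, 32.5% and 30.6% for the gated cells and 48.4% and 48.5% for those with microglia markers. Dendritic cell genes were not used to divide the cells. The set with microglia markers held 50 and 23 UMIs of Cd209a and 11 and 1 of Clec9a, beside 797 and 133 of P2ry12. The median number of chain UMIs per cell was lower with tomatidine in each of these sets, 36 against 46.5, 16 against 89 and 8 against 13. Choroid plexus markers had 25467 UMIs in the chain-high control cells and 263 in the tomatidine ones, 97.3% of the former in 5 cells, and their part was not tested.

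In lymphocyte-like cells, 59 control and 32 tomatidine cells, the chains had 2771 and 862 UMIs, 14497 and 8505 CPM, with a log2 ratio of −0.77 (−0.88 to −0.66). Few cells carried them, 15 control and 5 tomatidine cells being chain-high, and the difference of these shares included 0 (−9.80 points, −25.0 to 8.85). Ciita had 59 and 18 UMIs (−0.80, −1.65 to −0.02), and its CPM was higher than in any other of the 28 classes. In cluster 19 the chains had 230 and 102 UMIs (−0.97, −1.32 to −0.63) and Mrc1 96 and 89 (0.09, −0.34 to 0.53).

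In meningeal-like cells the chain UMIs were lower with tomatidine, but 5 control cells held 90.2% of those of the control. The chains had 835 control and 259 tomatidine UMIs, 570 and 110 CPM, with a log2 ratio of −2.37 (−2.58 to −2.17). A single control cell held 499 of the 835, and the next 4 held 103, 88, 38 and 25. Without the 5 cells with the most chain UMIs in each library, 82 and 139 UMIs were left and the log2 ratio was 0.05 (−0.36 to 0.46). The share of cells with a chain UMI was 13.6% in the control and 12.1% in the tomatidine library (−1.57 points, −6.69 to 3.09), and thinned to 1500 UMIs it was 7.09% and 6.99%. So the lower sum rested on those cells, and the remaining cells gave no difference detectable at this depth.

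H2-Aa had 275 and 92 UMIs in meningeal-like cells (−2.26), H2-Ab1 285 and 80 (−2.52) and H2-Eb1 275 and 87 (−2.34). The genes other than Cd74 and the chains were sparse there. Cd74 had 648 UMIs in 30 of 286 control cells and 245 in 53 of 522 tomatidine cells (−2.09, −2.30 to −1.87). Mrc1 had 51 UMIs in 18 cells against 43 in 31 (−0.93, −1.55 to −0.32), and F13a1 32 in 17 against 18 in 17 (−1.51, −2.43 to −0.64). Cd163 had 13 and 15 UMIs (−0.48, −1.65 to 0.71), Lyve1 5 and 12 (0.58, −1.03 to 2.44) and Ciita 8 and 6 (−1.10, −2.91 to 0.62). Of the 7 genes with at least 20 UMIs here, 6 were at least 1.5-fold lower (6.47% of 11959 genes) and 0 higher (5.15%). Few control cells weighed here too: the 5 with the most of each held 89.0% of the control's Cd74, 66.7% of its Mrc1 and 62.5% of its gate gene UMIs, against 50.6%, 37.2% and 25% in the 5 top tomatidine cells. The share of cells with a gate gene UMI was 10.5% and 10.3%. Gate gene shares after thinning (5.21% and 5.36%) were above those of oligodendrocyte-like cells (0.374% and 0.288%).

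The wider MHC class II pathway list held 22 genes, of which 19 were in the files and 18 had at least 20 UMIs in microglia-like cells. At a fold of at least 1.5, 7 were lower and 1 higher with tomatidine (2.38% and 6.12% of all genes), with a median log2 ratio of −0.33 against 0.04 over all genes. Besides Cd74 and the 3 chains, the lower ones were H2-DMb1 (131 and 70 UMIs, −0.65) and H2-DMb2 (29 and 7 UMIs, −1.80), chains of the peptide exchange factor H2-M, and H2-Oa (267 and 132 UMIs, −0.76), a chain of its modulator H2-O. The higher one was Rfxank (69 and 94 UMIs, 0.70), a subunit of the complex that binds the X box, while its partners Rfx5 (0.44, −0.01 to 0.89) and Rfxap (−0.20, −0.65 to 0.24) had intervals that included 0. The peptide-cutting proteases were close, with Ctss at 28828 and 20138 UMIs (−0.26), Ctsl at 2192 and 1833 (−0.01) and Lgmn at 5193 and 4632 (0.09). In gated cells, 7 of 15 pathway genes were lower and 0 higher (6.57% and 9.13% of all genes), now with Ciita, Ctss (1715 and 956 UMIs, −0.77) and H2-DMb1 (21 and 10 UMIs, −0.99) beside Cd74 and the chains. In meningeal-like cells 8 of 14 were lower and 0 higher (6.47% and 5.15% of all genes). There the top 5 control cells held 90.2% of the control's chain UMIs and 89.0% of its Cd74 UMIs. The list was not counted without such cells.

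Of the border macrophage list, 26 of 26 genes had enough UMIs in microglia-like cells, and 8 of them were at least 1.5-fold higher (6.12% of all genes) and 0 lower (2.38%), with a median log2 ratio of 0.33. The largest ratios were those of Folr2 (51 and 90 UMIs, 1.07, 0.56 to 1.60), the sialoadhesin Siglec1 (129 and 226 UMIs, 1.06, 0.74 to 1.39) and the endocytic adaptor Dab2 (212 and 306 UMIs, 0.78, 0.52 to 1.04), besides F13a1. In gated cells only Folr2 was higher (76 and 121 UMIs, 0.75), and Mgl2 (103 and 28 UMIs, −1.80), Cd209g (98 and 60 UMIs, −0.63) and Clec12a (58 and 35 UMIs, −0.65) were lower (9.13% of all genes higher and 6.57% lower), with a list median of −0.01. In meningeal-like cells 8 of 15 were lower (6.47% of all genes) and 0 higher (5.15%), with a median of −0.93. There the top 5 control cells held 66.7% of the control's Mrc1 UMIs and 62.5% of its gate gene UMIs. This list, too, was not counted without such cells. Among the 74 genes of all lists with at least 50 UMIs in microglia-like cells, the lowest ratios were those of H2-Aa, Cd74, H2-Eb1, H2-Ab1 and Spp1, the osteopontin gene (973 and 428 UMIs, −0.93). The highest was that of the lectin Cd209a (86 and 181 UMIs, 1.33, 0.95 to 1.71). The products of co-stimulatory genes are read by T cells together with MHC class II. In microglia-like cells these genes were mostly close, with Cd86 at 608 and 510 UMIs and Cd80 at 106 and 122 UMIs (0.46, 0.07 to 0.84). Of 6 with enough UMIs, 0 were at least 1.5-fold higher and 1 was lower, Cd40 (17 and 8 UMIs, −0.83, −2.26 to 0.46). In gated cells 1 of 6 was higher and 1 lower (9.13% and 6.57% of all genes), with a median of −0.41. For meningeal-like cells 3 of 4 were higher and 0 lower (5.15% and 6.47% of all genes), with a median of 0.84.

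Across the 28 classes in 2 libraries, 56 points of log2(CPM + 1), the pattern of each gene was compared with those of 14631 genes by Pearson's r. The points share libraries and depth, and no p-value is given. Cd74 was most like H2-Aa (r = 0.977), H2-Eb1 (0.966) and the leukocyte gene Ptprc, and Ciita was most like Cd244a (0.931), Clec12a (0.930) and Sp110. Mrc1 was most like Cyba (0.943), Tgfb1 and Uba7, Cd163 like Ms4a7 (0.953), Siglec1 and Stab1, and F13a1 like Gsdmd (0.940), Mrc1 and Plaur. Lyve1 was most like Fcna (0.942), Ccl24 (0.941) and Cd209g.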

How the data were processed

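Fixed cells were hybridised to probe pairs for single-cell RNA sequencing (10x Genomics Flex), in 1 library per group. The deposited files hold UMI counts per gene and cell that the authors made with Cell Ranger (8.0.0 in the submitters' processing notes, 7.1.0 in the matrix headers) against mm10. Probe-based counts compare a gene between cells, and not 1 gene with another.

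A cell was kept if it had 500 or more UMIs, over 250 genes, a ratio of log genes to log UMIs over 0.8 and a mitochondrial share below 20%. As doublets, the top 2% of each library by Scrublet score were dropped, 308 in the control and 296 in the tomatidine library, because the caller's own threshold marked 0 and 2. Cells were clustered in Seurat 5.3.0 (reciprocal PCA integration) on 2000 variable genes and 30 components, at resolution 0.8, after 123 genes (the 9 genes and the other listed genes) were left out. The 38 clusters were named from markers of 16 classes, and 19 stayed unnamed; the names are rebuilt here and may differ from the study's. UMIs were summed per class and library, in R 4.3.3 and Python 3.11.15 with scanpy 1.11.5. Intervals are exact Poisson for levels, Clopper-Pearson for shares, Newcombe for differences of shares and exact conditional binomial for ratios, all at 95%; the scripts were tested on simulated data. edgeR 4.0.16 gave TMM factors only. Genes of at least 20 UMIs in both libraries together were compared at a fold of 1.5. Besides the 9 genes, those named were the 10 with the largest fold in gated over other, and in chain-high over chain-negative, microglia-like cells, the 5 highest and 5 lowest ratios among listed genes of at least 50 UMIs, the 3 most alike in pattern to each gene, and listed genes past the fold; P2ry12, Csf1r, Fcrls, Siglech, the regulators and proteases of the pathway, Cd80 and Cd86 were named after their values were seen. The genes and lists were chosen with earlier results of these data known. The alternatives were other cell filters, clusterings, scalings, gates and depths. No other columns of per-sample values were in the files (0). Cx3cr1, H2-Ea and Marchf1 were not analysed here.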

Additional observations from a re-analysis of the deposited data

How the results depend on the processing

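No paired analysis was possible because each group is 1 library. In microglia-like cells, the log2 ratio of the chains (−1.70) stayed below 0 under 12 of 12 alternatives. It was −2.53 with all deposited cells, −2.52 without doublet removal, −2.48 at resolution 1.5 and −2.86 with cells chosen by markers. Under the first 3, microglia-like cells held only 719, 743 and 722 control chain UMIs, against 6054 in the main analysis. They held 99, 112 and 108 tomatidine chain UMIs, against 1569. The log2 ratio was −1.34 as the mean of the cells' CPM. Among alternatives added after the data were seen, it was −2.44 without the 5 cells with the most chain UMIs in each library and −1.58 without gated cells and cells with B cell genes. The difference in the share of chain-positive cells kept its direction under 13 of 13 alternatives, from −8.36 to −4.36 points. The difference in the gated share (0.08 points, −0.12 to 0.29) was above 0 under 8 of 8 alternatives. Its interval included 0 in the main analysis and in all alternatives except a gate of 1 UMI (0.41 points, 0.06 to 0.76). That gate added 218 control and 257 tomatidine cells with 1 UMI, of which 14 and 9 were microglia-like. In gated cells the log2 ratio of the chains (−2.07) was −1.87 with all deposited cells, −1.93 under both of the study's sets of thresholds, −2.22 and −1.48 at gates of 1 and 3 UMIs, −2.37 in gated microglia-like cells, −1.37 as the mean of the cells' CPM and, as an added alternative, −3.27 without the 5 top cells. In meningeal-like cells the ratio (−2.37) was −2.81 with all deposited cells, −2.79 under both sets of thresholds, −3.37 with cells chosen by markers and −1.97 as the mean of the cells' CPM. Without the 5 top cells, also an added alternative, it was 0.048 and so on the other side of 0. The treatment and the library cannot be told apart, and intervals cover counting error only. Ciita in microglia-like cells and Cd163, Lyve1 and Ciita in meningeal-like cells were too sparse at this depth for a difference to be detectable.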

Other observations

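Cd209a, the lectin gene of dendritic cells and of some border macrophages, and Spp1, the osteopontin gene, differed in different directions between sets of cells. Cd209a had 86 control and 181 tomatidine UMIs in microglia-like cells (log2 ratio 1.33), 218 and 199 in gated cells (−0.05, −0.34 to 0.23) and 49 and 6 in meningeal-like cells (−3.71, −5.23 to −2.49). Spp1 had 973 and 428 UMIs in microglia-like cells (−0.93, −1.10 to −0.77), 65 and 127 in gated cells (1.04) and 591 and 962 in meningeal-like cells (0.02, −0.13 to 0.17). With 1 library per group, no difference between these sets was tested.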
